A study of Mus musculus with 27 samples.

Results

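The genes described here are 7 factors of the formative and primed epiblast: Otx2, Pou3f1, Zic2, Zic5, Sall2, Sox3 and Pim2. They were chosen by name, as known factors of the step that follows the naive state of mouse embryonic stem cells, and were matched by gene identifier to GENCODE M21 symbols. All 7 were found among the 51826 identifiers of the 27 count tables, and all 7 passed the filter on low counts in every comparison. The libraries hold total RNA, depleted of ribosomal RNA, from E14 mouse embryonic stem cells and from embryoid bodies, the floating aggregates in which such cells differentiate. They come from 3 lines, namely wild type E14, a Quaking knockout (KO) and a line labelled Sam68 KO, each at days 0, 3 and 10 with 3 biological replicates. Both KO lines have the E14 background, and the wild type cells carry neither deletion. Each KO is represented by 1 line, so an effect of the deletion and a difference between clones cannot be told apart. Quaking (gene Qk) and Sam68 (gene Khdrbs1) are RNA-binding proteins of the STAR family, whose part in early mammalian development the series addresses.

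Naive stem cells resemble the epiblast before implantation. On differentiation they pass through a formative stage, in which naive regulators are silenced and the cells gain competence for germ layers, and then a primed stage close to gastrulation. Otx2, a bicoid-type homeodomain factor, drives the exit from the naive state by directing Oct4 to new enhancers, and Pou3f1 (Oct6), a POU factor, marks the same step and favours neural fates. Zic2 and Zic5 are zinc finger factors encoded side by side, Sall2 is a spalt-family zinc finger factor, Sox3 is a SOXB1 factor of the epiblast and neural plate, and Pim2 is a serine/threonine kinase that favours growth and survival.

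Library totals lay between 56.5 M and 77.3 M counts, and the lowest count of any of the 7 genes in any library was 31, for Sox3. Qk was lower in the Quaking KO, at 150 to 168 CPM (counts scaled by the effective library size) on day 0 against 231 to 238 in wild type, 112 to 124.5 against 218 to 231 on day 3, and 199 to 211 against 252 to 281 on day 10. Khdrbs1 was not lost in the libraries labelled Sam68 KO. It stood at 87.8 to 96.4 CPM on day 0 against 97.8 to 100.3 in wild type (edgeR adjusted p = 0.576) and at 98.65 to 102 on day 10 against 98.1 to 146 (adjusted p = 0.132), and it was lower on day 3, at 91.0 to 105 against 152 to 166 (adjusted p = 1.15e-07). In the Quaking KO it was lower on day 0, at 69.1 to 76.8 CPM (adjusted p = 7.42e-08). Counts per gene do not show which exons remain, so neither value checks the deleted part. The library numbers in the labels of the Sam68 KO libraries do not overlap with those of the other lines, so this label and a batch cannot be told apart. Stage markers moved with the days: all 10 naive markers, such as Klf4 and Nr0b1, fell from day 0 to day 3 in wild type (edgeR log2 fold changes -5.18 ± 0.085 and -4.235 ± 0.105, SE), and all 8 primitive streak markers rose. Of 10 neural progenitor markers, 8 rose and 2 fell from day 3 to day 10 in wild type, beside 39.6% of all genes higher and 36.5% lower. Their summed level was 148 to 161 CPM on day 3 and 270 to 309 on day 10. Hes5, Six3 and Neurog2 of that list were below 1 CPM on all 3 days in wild type. Embryoid bodies mix cell types, so fewer cells of a type and less RNA per cell cannot be told apart in any value below.

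Otx2 (chr14:48657677-48673819, minus strand, GRCm38), Sall2 (chr14:52311172-52328762, minus), Zic5 (chr14:122456795-122465677, minus) and Zic2 (chr14:122475435-122479852, plus) lie on chromosome 14. Sox3 (chrX:60891366-60893430, minus) and Pim2 (chrX:7878262-7883432, plus) lie on the X chromosome, and Pou3f1 (chr4:124656807-124660655, plus) on chromosome 4. Pou3f1 and Sox3 each have 1 exon block. RefSeq promoter windows of GRCm38.p6, from 250 bases before to 50 after a start, were on hand for 4 of the 7 genes: Otx2, Zic5, Sall2 and Pim2. The 3 windows that hold a match to a motif searched are shown. Where a gene has several starts, the window is the one with the most GENCODE protein-coding starts within 50 bases. Capitals mark exact matches, on either strand, to 6 motifs: the octamer ATGCAAAT, the bicoid-type site TAATCC, the SOX core ACAATG, the GC box GGGCGG, the CCAAT box CCAAT and the TATA box TATAAA.
Pim2, chrX:7878056-7878355, plus strand: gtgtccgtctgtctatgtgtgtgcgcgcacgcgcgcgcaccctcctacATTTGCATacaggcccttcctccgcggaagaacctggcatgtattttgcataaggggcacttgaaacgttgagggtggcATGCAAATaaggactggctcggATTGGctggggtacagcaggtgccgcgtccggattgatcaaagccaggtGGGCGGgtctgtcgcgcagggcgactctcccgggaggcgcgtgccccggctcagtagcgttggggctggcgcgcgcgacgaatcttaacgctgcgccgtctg
Otx2, chr14:48667459-48667758, minus strand: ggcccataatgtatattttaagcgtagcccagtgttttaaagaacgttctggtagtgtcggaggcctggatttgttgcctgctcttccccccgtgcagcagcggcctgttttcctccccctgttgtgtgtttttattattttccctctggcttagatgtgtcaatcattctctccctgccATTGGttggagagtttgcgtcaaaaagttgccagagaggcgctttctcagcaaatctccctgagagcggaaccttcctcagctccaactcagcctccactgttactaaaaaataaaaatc
Zic5, chr14:122465609-122465908, minus strand: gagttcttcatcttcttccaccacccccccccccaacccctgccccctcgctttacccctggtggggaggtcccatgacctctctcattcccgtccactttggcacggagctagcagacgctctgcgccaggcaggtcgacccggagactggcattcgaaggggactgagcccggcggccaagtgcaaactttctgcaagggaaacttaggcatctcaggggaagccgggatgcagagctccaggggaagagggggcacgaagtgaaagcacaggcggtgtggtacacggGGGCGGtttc

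The Pim2 window holds the octamer, the sequence bound by POU factors such as Oct4 and Pou3f1, 2 times, once on each strand, at positions -202 and -123 relative to the start. Of all 32851 promoter windows of this length, 1.74% hold the octamer and 0.103% hold it more than once. Pim2 also has a GC box and a CCAAT box, which 35.7% and 37.4% of windows hold. Otx2 has 1 CCAAT box and Zic5 has 1 GC box, at position 41. The Sall2 window (chr14:52316274-52316573) matches none of the 6 motifs. The bicoid-type site, in 7.06% of windows, occurs in none of the 3 shown and in 1 other Otx2 window. The SOX core is in 12.6% of windows and the TATA box in 13.6%, and neither is in the windows shown. Pim2 has 31 CpG dinucleotides, against 15 in Zic5 and 8 in Otx2, and G+C makes up 62.7%, 62.7% and 47.7% of the windows in that order, beside a median of 52.7% over all windows. These matches are a description of letters, and binding was not measured.

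Because 1 line lacks Quaking, the longest protein-coding GENCODE transcript of each gene was searched for its RNA core, written as DNA as ACTAAC or ACTAAT, on the transcript strand. Of 21760 protein-coding genes, 43.4% hold at least 1 such core. Among the 7 genes, 3 do: Pou3f1 and Zic5 have 1 each in the 3′ UTR, and Sall2 has 2 in the coding sequence. The sites are printed on the transcript strand, with 12 flanking bases on each side and the core in capitals, so that genes with and without a site can be read beside the Quaking KO values.
Pou3f1, 3′ UTR, chr4:124659874-124659879: aaaaaaaaaaaaACTAACaaaaaaattttt
Zic5, 3′ UTR, chr14:122457679-122457684: tatgctaaaggtACTAATttatcctcagag
Sall2, coding, chr14:52314045-52314050: tgggcactgcttACTAATcacttgaagtca
Sall2, coding, chr14:52313637-52313642: cagaagaagttcACTAATgctgtcactctg

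Otx2, Zic2, Sox3 and Pim2 hold no such core in these transcripts. Among transcripts within 10% of the same length, the share with a core was 55.1% for Pou3f1, 62.5% for Zic5, 66.3% for Sall2, 39.6% for Otx2, 37.5% for Zic2, 34.2% for Sox3 and 33.5% for Pim2.

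In wild type cells all 7 genes were low on day 0, reached their highest level on day 3 and fell by day 10. The question of these comparisons is how the genes move with time in embryoid bodies. All 7 rose from day 0 to day 3, beside 60.9% of 21060 genes called, 30.8% higher and 30.1% lower. All 7 fell from day 3 to day 10, beside 76.1% called, 39.6% higher and 36.5% lower. The libraries of the 2 days did not overlap for any of the 7 genes in either step, beside 70.4% and 77.1% of all genes. The median log2 fold change of the 7 genes was 3.57 and then -3.30, beside 0.011 and 0.016 over all genes. The genes are known for a rise of this kind, so its direction describes them and is no independent support.

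**Figure D1:**
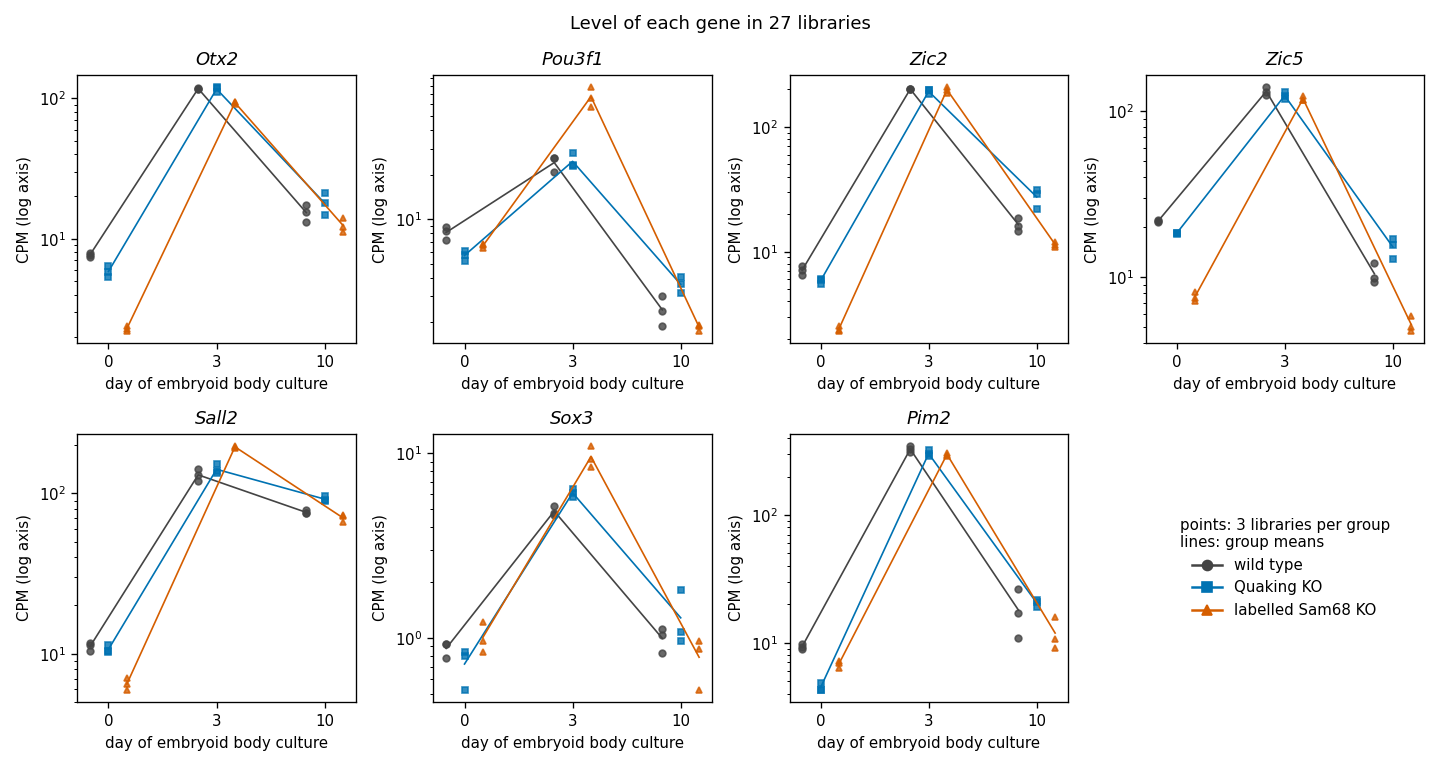
Level of each gene in CPM (log axis) in every library, by day of embryoid body culture (days evenly spaced), with 3 libraries and the group mean per line and day. In all 3 lines every gene is highest on day 3; Pou3f1 in the libraries labelled Sam68 KO, at 57.8 to 78.4 CPM, lies above the other lines on that day.

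Of the homeodomain and POU factors, Otx2 in wild type stood at 7.93, 7.45 and 7.71 CPM on day 0, at 117, 118 and 117 on day 3 and at 17.5, 13.1 and 15.4 on day 10. The days did not overlap, and day 10 stayed above day 0. Otx2 was 15.5-fold higher on day 3 than on day 0 (log2 fold change 3.95 ± 0.09, SE, adjusted p = 1.15e-12, edgeR's quasi-likelihood test) and 2.04-fold higher on day 10 than on day 0. Pou3f1 stood at 7.27, 8.27 and 8.83 CPM on day 0, 25.8, 20.8 and 25.8 on day 3 and 3.00, 1.90 and 2.39 on day 10. Its rise was the smallest of the 7, at 3.02-fold (1.59 ± 0.13), and it ended 3.27-fold below its day 0 level (-1.71 ± 0.145, adjusted p = 9.85e-08).

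The zinc finger genes Zic2 and Zic5, which are neighbours transcribed away from each other, differed in how far they rose. Zic2 in wild type stood at 6.545, 7.105 and 7.75 CPM on day 0, 201, 201 and 199 on day 3 and 18.7, 14.7 and 16.1 on day 10. Zic5 stood at 21.5, 22.2 and 21.7 CPM on day 0, 139.5, 125 and 129 on day 3 and 12.15, 9.37 and 9.94 on day 10. Zic2 thus rose 28.5-fold and Zic5 6.12-fold from day 0 to day 3, and on day 10 Zic2 was above its day 0 level (log2 fold change 1.24 ± 0.09) while Zic5 was below it (-1.03 ± 0.09). The difference between these genes was not tested. Sall2 stood at 10.4, 11.6 and 11.3 CPM on day 0, 141.5, 119 and 130 on day 3 and 74.8, 75.04 and 78.1 on day 10. Sall2 was the member that held its level best: it fell only 1.70-fold after day 3 (-0.77 ± 0.07, adjusted p = 3.63e-07), where the other 6 fell between 4.84-fold and 18.1-fold.

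Sox3 was the lowest of the genes, at 0.926, 0.779 and 0.9315 CPM on day 0, 5.19, 4.61 and 4.76 on day 3 and 1.11, 0.835 and 1.04 on day 10 in wild type. Its day 0 and day 10 libraries overlapped, and the 1.16-fold difference between these days did not pass the test (adjusted p = 0.239). The kinase gene Pim2 stood at 8.89, 9.26 and 9.84 CPM on day 0 and 327, 309 and 348 on day 3, a 35.7-fold rise (5.16 ± 0.24, adjusted p = 5.05e-10) that was the largest of the 7. On day 10 its 3 wild type libraries ranged from 10.9 to 26.2 CPM, the widest spread of any gene and group (coefficient of variation 42.8%). In those day 10 wild type libraries, replicate 1 was the highest for 6 of the 7 genes and replicate 2 the lowest for 6 of the 7, with Sall2 as the exception in both counts. Of the 7 genes, 6 differed between day 10 and day 0 in wild type, 4 of them higher and 2 lower, beside 80.8% of all genes called, 41.4% higher and 39.4% lower.

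Per length, the order of the genes changed with the day. In TPM, a unit that scales counts by gene length (here the union exon length), wild type day 0 levels ran from Zic5 (9.86 ± 0.45, SD, n = 3) over Pim2 (7.38 ± 0.42), Zic2 (5.48 ± 0.49), Pou3f1 (4.67 ± 0.50), Sall2 (4.53 ± 0.38) and Otx2 (4.03 ± 0.048) to Sox3 (0.939 ± 0.066). Pou3f1 and Sall2 lay within 1 SD of each other, and the ranges of mean ± SD of Zic2 and Pou3f1 overlapped. On day 3 Pim2 led at 294 ± 19.4 TPM, followed by Zic2 at 174 ± 5.29. Otx2, Zic5 and Sall2 came next at 69.6, 67.2 and 59.8 TPM, of which Otx2 and Zic5 did not differ beyond their spread, and Pou3f1 (15.7) and Sox3 (5.87) were last. On day 10 Sall2 led at 38.7 ± 2.3 TPM, and Pim2 (18.1 ± 8.65) and Zic2 (15.9 ± 2.84) could not be ordered within their SD.

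**Figure D2:**
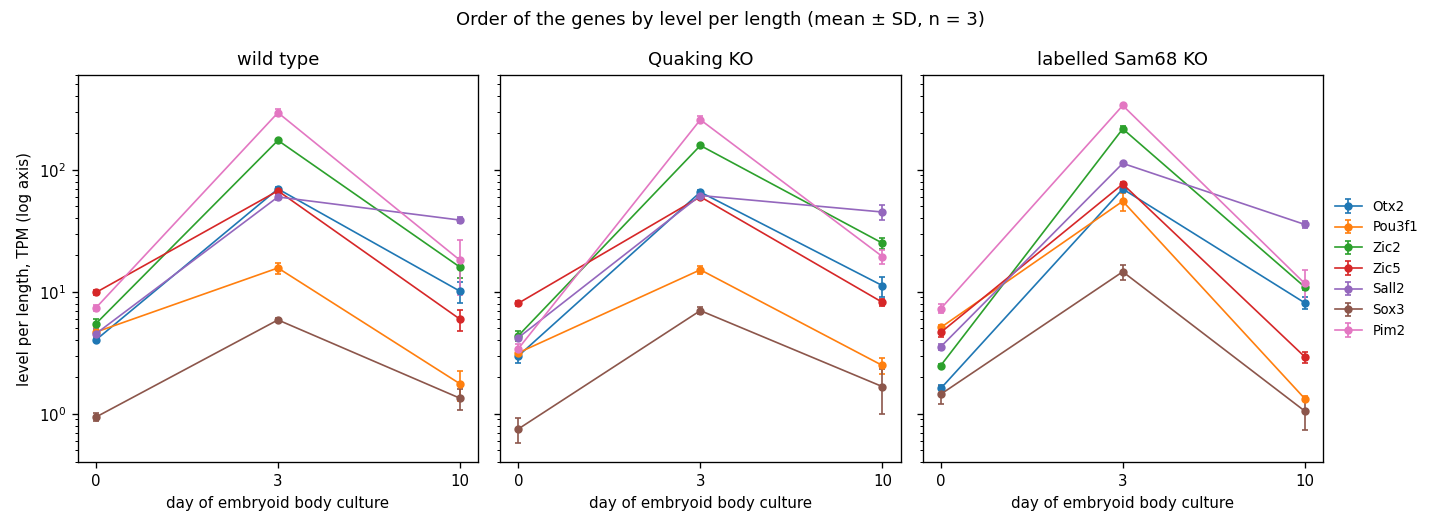
Level per length of the 7 genes in TPM (log axis, mean ± SD, n = 3) by day (days evenly spaced), with 1 panel per line. Pim2 leads on day 3 in all 3 lines, and Sall2 leads on day 10 in all 3, at 38.7 TPM in wild type, 45.0 in the Quaking KO and 35.6 in the line labelled Sam68 KO.

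The same course was seen in both KO lines, each fitted on its own libraries. In the Quaking KO all 7 rose by day 3, beside 69% of genes called, 34.2% higher and 34.8% lower. All 7 then fell by day 10, beside 78.1% called, 41.1% higher and 37% lower. In the line labelled Sam68 KO all 7 rose by day 3, beside 72.9% called, 37% higher and 35.9% lower. All 7 fell by day 10 in that line, beside 86% called, 43.5% higher and 42.5% lower. By day 10, the Quaking KO had 5 genes above and 2 below day 0, beside 83.5% called, 43.1% higher and 40.5% lower. Of the 2 lower genes, Zic5 lost its call with DESeq2 (adjusted p = 0.0621), under the size factors of DESeq2 (adjusted p = 0.0632) and without day 0 replicate 3 (adjusted p = 0.0504) or day 10 replicate 1 (adjusted p = 0.124). In CPM of the library total the Zic5 means of the Quaking KO were 16.28 on day 10 and 16.18 on day 0. In TPM they were 8.196 ± 0.59 and 8.055 ± 0.41 (SD, n = 3), so the decrease was not seen on these scales. The line labelled Sam68 KO had 4 above and 2 below, beside 88.1% called, 45% higher and 43.1% lower. Sox3, the gene not called there, passed as lower under upper-quartile scaling (adjusted p = 0.00778), with no filter (adjusted p = 0.0469), on protein-coding genes alone (adjusted p = 0.0206) and without day 10 replicate 1 (adjusted p = 0.0401). The steepest rise in the Quaking KO was that of Pim2, 68.4-fold, and in the line labelled Sam68 KO that of Zic2, 81.4-fold. Pou3f1 rose 3.02-fold in wild type, 4.36-fold in the Quaking KO and 10.1-fold in the line labelled Sam68 KO.

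In Quaking KO stem cells on day 0, 5 of the 7 genes were lower than in wild type and none was higher, beside 39.7% of 19841 genes called, 19.4% higher and 20.3% lower. The median log2 fold change of the 7 was -0.30, beside 0.001 over all genes. Pim2 stood at 4.27, 4.81 and 4.26 CPM in the Quaking KO, with every library below the wild type range of 8.89 to 9.84. It was 2.12-fold lower (log2 fold change -1.08 ± 0.07, SE, adjusted p = 9.03e-10, edgeR). Pou3f1 stood at 6.09, 5.74 and 5.20 CPM, again below every wild type library, and was 1.45-fold lower (-0.53 ± 0.08, adjusted p = 2.01e-05). Otx2 (5.32, 6.38 and 5.83 CPM), Zic2 (5.48, 5.975 and 6.09) and Zic5 (18.2, 18.45 and 18.4) also lay below wild type without overlap, so 5 of the 7 genes did not overlap, beside 47% of all genes. Their decreases were small, between 1.20-fold for Zic5 and 1.33-fold for Otx2, and Zic2 lost its call in 1 fit of all 27 libraries (-0.29 ± 0.11, adjusted p = 0.057). Sall2 (-0.08 ± 0.065, adjusted p = 0.389) and Sox3 (-0.30 ± 0.21, adjusted p = 0.275) overlapped with wild type. Of the 5 genes called, Pou3f1 and Zic5 hold a Quaking core and Otx2, Zic2 and Pim2 do not. Sall2, which holds 2 cores, was not called.

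Genes of the same stage moved beside them. Of 12 other formative and primed genes, 9 were lower in the Quaking KO on day 0 and 2 higher. The lower genes with the smallest p were Cldn6 (-0.95 ± 0.05), a claudin of early epithelia, and Grhl2 (-0.94 ± 0.05), an epithelial transcription factor, and the higher ones were Nodal (0.35 ± 0.03), a ligand of the TGF-beta family, and Foxd3 (0.36 ± 0.06). Larger decreases, named after their values were seen, were those of Lef1 (-2.07 ± 0.13), a factor of Wnt signalling, and of Fgf5 (-2.87 ± 0.69). Fgf5, a ligand gene of the primed epiblast, was below 1 CPM in both lines on day 0. All 10 naive genes were higher, with Tbx3 at 0.93 ± 0.04 and Tfcp2l1 at 0.64 ± 0.03, and their summed level was 2521 to 2627 CPM against 1827 to 1911 in wild type. Endoderm genes were lower in 6 of 7 tested, with a sum of 45.9 to 50.2 CPM against 69.7 to 74.4. Their part in the lower values of the 7 genes was not tested.

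On day 3 none of the 7 genes passed the test between the Quaking KO and wild type with edgeR, beside 7.01% of 19711 genes called, 3.08% higher and 3.93% lower. At an unadjusted p under 0.05, 2 passed: Pim2 (-0.12 ± 0.05) and Sox3 (0.33 ± 0.10, adjusted p = 0.0615). DESeq2 called 1, Sox3. Its Quaking KO libraries, at 6.07, 5.815 and 6.395 CPM, all lay above the wild type range of 4.61 to 5.19. The other genes were close between the lines, for example Otx2 at 118, 121 and 111 CPM against 117 to 118 and Zic2 at 198, 196 and 182 against 199 to 201. Zic2 and Sox3 did not overlap between the lines, 2 of the 7 genes, beside 22.7% of all genes. The estimates of the 7 lay between -0.12 and 0.33 on the log2 scale.

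The test of the change between days shows where the Quaking KO difference moved. From day 0 to day 3 it shifted upward for 4 of the 7 genes, beside 15.9% of genes called in this interaction, 9.45% higher and 6.45% lower. The shift was 0.96 ± 0.09 on the log2 scale for Pim2 (edgeR adjusted p = 7.42e-07), 0.55 ± 0.14 for Pou3f1 (adjusted p = 0.0118), 0.62 ± 0.20 for Sox3 (adjusted p = 0.0452) and 0.39 ± 0.08 for Otx2 (adjusted p = 0.00201). Sox3 lost its call without any 1 of 7 libraries: wild type day 0 replicates 1 and 3, Quaking KO day 0 replicate 2, wild type day 3 replicates 2 and 3, and Quaking KO day 3 replicates 1 and 3 (adjusted p from 0.0598 to 0.158). In 1 fit of all 27 libraries Sox3 (adjusted p = 0.233) and Otx2 (adjusted p = 0.0813) lost their calls.

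On day 10, 3 of the 7 genes were higher in the Quaking KO than in wild type and none was lower, beside 11.7% of 20503 genes called, 4.96% higher and 6.71% lower. Zic2 stood at 22.0, 31.4 and 29.0 CPM, above the wild type range of 14.7 to 18.7, and was 1.64-fold higher (0.71 ± 0.13, adjusted p = 0.0061). Zic5 stood at 12.9, 17.1 and 15.7 CPM against 9.37 to 12.15 and was 1.43-fold higher (0.51 ± 0.13, adjusted p = 0.0311), and Sall2 stood at 96.2, 89.1 and 90.4 against 74.8 to 78.1 and was 1.19-fold higher (0.25 ± 0.06, adjusted p = 0.0166). Without wild type day 10 replicate 2, Zic2 alone of the 3 passed. Zic5 lost its call without wild type replicate 2 or 3 or Quaking KO replicate 2 or 3 of that day (adjusted p from 0.0801 to 0.108), and Sall2 without wild type replicate 2 (adjusted p = 0.0564) or Quaking KO replicate 1 (adjusted p = 0.065). Pou3f1 was at 3.17, 3.61 and 4.06 CPM against 1.90 to 3.00, with no overlap, and missed the threshold (0.55 ± 0.17, adjusted p = 0.0612). It passed with DESeq2 (adjusted p = 0.0167), with no filter (adjusted p = 0.0278), in 1 fit of all 27 libraries (adjusted p = 0.00536) and without wild type day 10 replicate 1 (adjusted p = 0.0109). In total, 4 of the 7 genes did not overlap, beside 29.8% of all genes. Between day 3 and day 10 the Quaking KO difference shifted upward for Zic2 (0.79 ± 0.16, adjusted p = 0.0142) and Zic5 (0.61 ± 0.15, adjusted p = 0.0339), 2 of the 7, beside 3.58% of genes called, 2.03% higher and 1.55% lower. Leaving out 1 library gave between 1 and 4 called genes in this interaction, and Zic5 lost its call in 8 of the 12 cases: without any of the 6 day 3 libraries, wild type day 10 replicate 2 or Quaking KO day 10 replicate 2 (adjusted p from 0.0599 to 0.0956).

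Neural progenitor genes moved in the same direction on day 10: 3 of 10 were higher in the Quaking KO and none lower, among them Lhx2 (1.11 ± 0.10) and Sox1 (1.30 ± 0.31), and their summed level was 330 to 400 CPM against 270 to 309 in wild type. Six3 and Neurog2, which mark forebrain and neuronal progenitors, stayed below 1 CPM in the Quaking KO. Among paralogues of the 7 genes, Pou3f3 (1.08 ± 0.17) and Zic1 (adjusted p = 0.00675) were the higher ones with the smallest p, and Pou3f4 was lower (-0.99 ± 0.27). Endoderm genes moved the other way, with 5 of 10 lower and none higher, among them Hnf4a (-0.83 ± 0.095), a nuclear receptor of endoderm, and a sum of 829.6 to 1007 CPM against 1152 to 1366. The part of neural and endoderm cells in the day 10 values of Zic2, Zic5 and Sall2 was not tested.

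**Figure D3:**
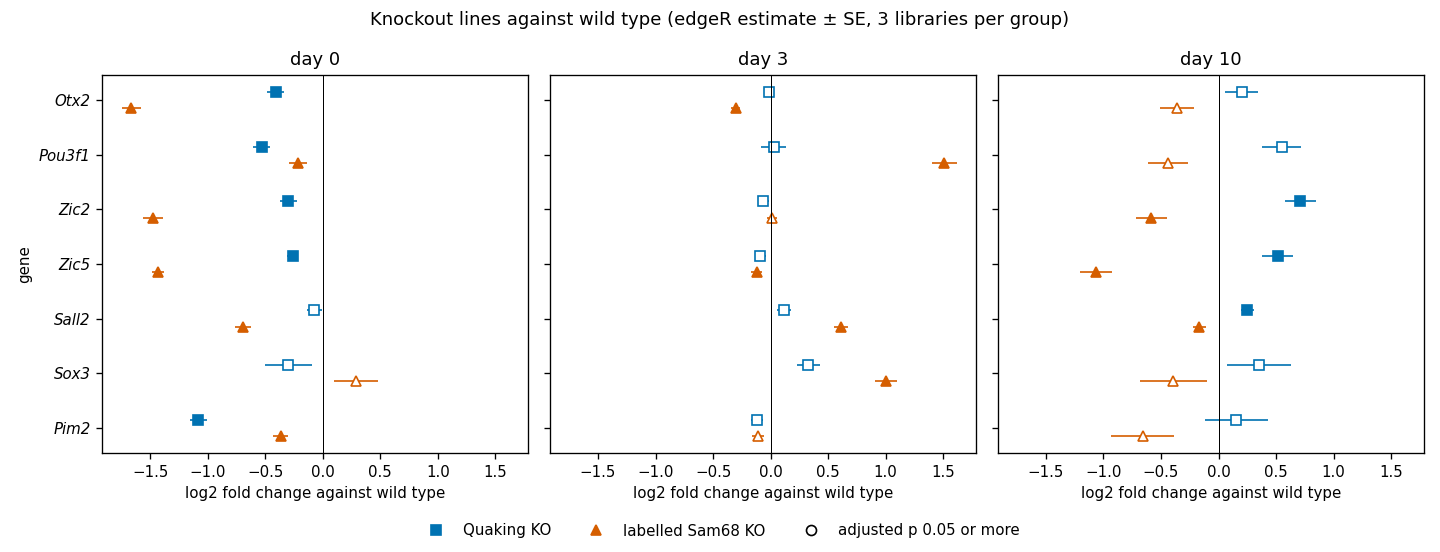
Log2 fold change of each KO line against wild type (edgeR estimate ± SE, 3 libraries per group) on days 0, 3 and 10; filled symbols passed an adjusted p of 0.05. The Quaking KO estimates run from -1.08 to -0.08 on day 0 and from 0.15 to 0.71 on day 10; those of the line labelled Sam68 KO run from -1.66 to 0.29 on day 0 and from -0.30 to 1.51 on day 3.

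In the line labelled Sam68 KO, compared with the same wild type libraries, 6 of the 7 genes were lower on day 0 and none was higher, beside 74.4% of 19841 genes called, 36.5% higher and 37.9% lower. The 3 strongest decreases were those of Otx2, Zic2 and Zic5. Otx2 stood at 2.19, 2.28 and 2.39 CPM against 7.45 to 7.93 in wild type, 3.17-fold lower (-1.66 ± 0.08, adjusted p = 2.77e-12). Zic2 stood at 2.56, 2.36 and 2.31 CPM against 6.55 to 7.75, 2.78-fold lower (-1.48 ± 0.085), and Zic5 at 7.53, 7.17 and 8.18 against 21.5 to 22.2, 2.69-fold lower (-1.43 ± 0.05). No library of these genes overlapped with wild type, and 6 of the 7 genes did not overlap in all, beside 78% of all genes. Sall2 (7.02, 6.48 and 5.94 CPM) was 1.61-fold lower and Pim2 (6.38, 7.18 and 6.91) 1.29-fold lower, a call that Pim2 lost in 1 fit of all 27 libraries (adjusted p = 0.064). In TPM Pim2 was at 7.26 ± 0.62 in the KO and 7.38 ± 0.42 in wild type (SD, n = 3), a difference within the SD. Pou3f1 (6.38, 6.75 and 6.64 CPM) was 1.16-fold lower (-0.21 ± 0.08, adjusted p = 0.015) and lost its call on protein-coding genes alone (adjusted p = 0.065), in 1 fit of all 27 libraries (adjusted p = 0.0514) and without wild type day 0 replicate 3 (adjusted p = 0.073) or replicate 1 of the KO (adjusted p = 0.0556). In TPM its direction turned, at 5.09 ± 0.29 in the KO against 4.67 ± 0.50 in wild type (SD, n = 3). Sox3, at 1.23, 0.962 and 0.837 CPM, overlapped with wild type (0.29 ± 0.19, adjusted p = 0.176).

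Markers of endoderm stood apart in the same day 0 libraries. All 7 tested endoderm genes were higher, with Gata4 at 2.32 ± 0.04 and Cubn at 2.58 ± 0.05 on the log2 scale, and the sum of the list was 345 to 355 CPM against 69.7 to 74.4 in wild type. Afp, Ttr and Apoa1, which mark maturing visceral endoderm, were below 1 CPM in both. Of the other 12 formative and primed genes 6 were lower and 2 higher, among them the DNA methyltransferase gene Dnmt3a (-0.65 ± 0.03) and Nodal (-0.63 ± 0.04) on the lower side. Of 10 naive genes 4 were higher and 4 lower. The part of endoderm-like cells in the lower values of Otx2, Zic2 and Zic5 was not tested.

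On day 3 the genes divided in the line labelled Sam68 KO. Of the 7, 3 were higher and 2 lower, beside 73.1% of 19711 genes called, 36% higher and 37.1% lower. Pou3f1 stood at 78.4, 66.1 and 57.8 CPM, every library above the wild type range of 20.8 to 25.8, and was 2.85-fold higher (1.51 ± 0.105, SE, adjusted p = 5.8e-09). Sox3 stood at 10.95, 9.28 and 8.44 CPM against 4.61 to 5.19 and was 2.01-fold higher (1.005 ± 0.096, adjusted p = 1.87e-07). Sall2 stood at 194, 198 and 193 CPM against 119 to 141.5 and was 1.52-fold higher (0.61 ± 0.06, adjusted p = 3.07e-07). These are the POU factor, the SOXB1 factor and the spalt factor of the set.

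Otx2 moved the other way on day 3, at 94.3, 93.8 and 91.7 CPM against 117 to 118 in wild type, 1.24-fold lower (-0.30 ± 0.04, adjusted p = 3.7e-06). In CPM of the library total the Otx2 means were 115.7 in wild type and 99.5 in the KO, and in TPM they were 69.6 and 69.5, so the decrease was not seen on the TPM scale. Of the 7 genes, 6 did not overlap between the lines on this day, beside 76.9% of all genes. Zic5 was 1.09-fold lower (-0.12 ± 0.05, adjusted p = 0.0367), a call lost under upper-quartile scaling (adjusted p = 0.386), on protein-coding genes alone (adjusted p = 0.333), in 1 fit of all 27 libraries (adjusted p = 0.138), and without wild type day 3 replicate 1 (adjusted p = 0.104) or replicate 2 (adjusted p = 0.114) or 3 (adjusted p = 0.0961) of the KO. In TPM, Zic5 turned direction, at 76.3 ± 2.84 in the KO against 67.2 ± 1.62 in wild type (SD, n = 3). Zic2 (208, 198 and 187 CPM against 199 to 201) and Pim2 (292, 296.5 and 308 against 309 to 348) did not pass, although Pim2 passed as lower without wild type day 3 replicate 2 (-0.16, adjusted p = 0.0182), with no filter (adjusted p = 0.00333) and on the 6 libraries compared (adjusted p = 0.0438). In TPM Pim2 was at 336 ± 6.47 in the KO against 294 ± 19.4 in wild type, the opposite direction. Zic2 was at 216 ± 13.9 TPM in the KO against 174 ± 5.29 in wild type, so it was higher on that scale. For any 1 gene, CPM and TPM differ between libraries only by a factor that all genes share.

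Primitive streak genes were far lower in the same day 3 libraries. All 8 were lower, with Wnt3 at -2.17 ± 0.11 and Evx1 at -3.79 ± 0.22, and their sum was 74.9 to 122 CPM against 571 to 866 in wild type. Neural progenitor genes were higher in 5 of 9 tested and lower in 1, with Sox1 at 2.79 ± 0.19 and Pax6 at 0.67 ± 0.11, while the sum of that list overlapped between the lines (145 to 161 CPM against 148 to 161). Endoderm genes stayed higher in sum (769.9 to 869 CPM against 266 to 299), although Foxa2 was lower (-1.98 ± 0.16). Their part in the higher values of Pou3f1, Sox3 and Sall2 was not tested.

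**Figure D4:**
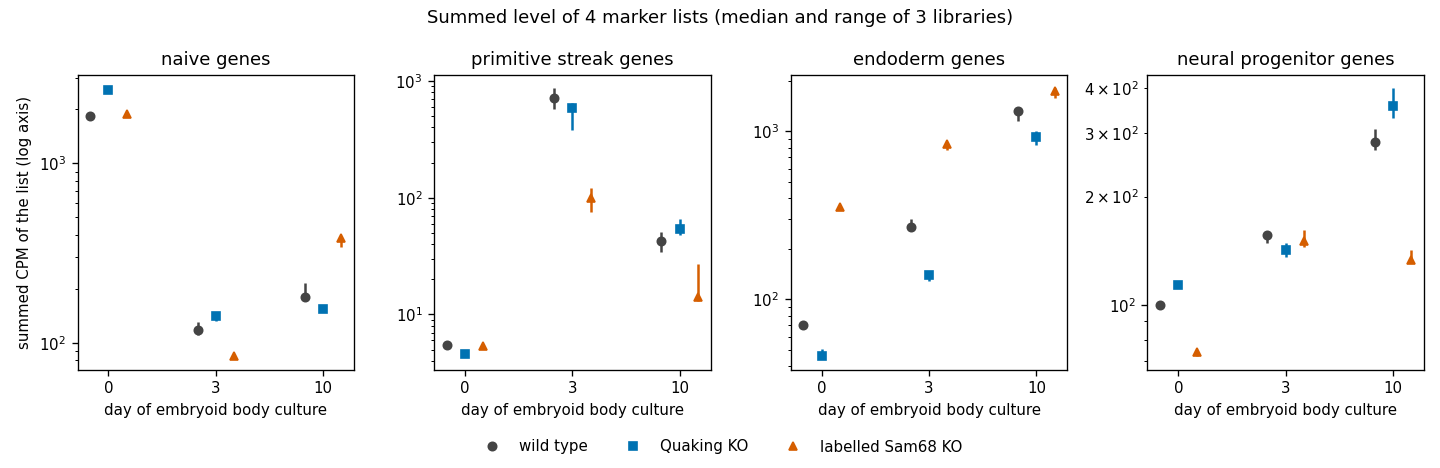
Summed CPM (log axis) of the naive, primitive streak, endoderm and neural progenitor lists by day (days evenly spaced), as median and range of 3 libraries per line. On day 3 the streak sum in the line labelled Sam68 KO lies at 74.9 to 122 CPM, under the 571 to 866 of wild type, and on day 10 the neural progenitor sum lies at 131 to 142 against 270 to 309.

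From day 0 to day 3 the difference of the line labelled Sam68 KO from wild type shifted upward for all 7 genes, beside 33.8% of genes called in the interaction, 18% higher and 15.9% lower. The shift was largest for Pou3f1 (1.75 ± 0.15 on the log2 scale, adjusted p = 1.17e-08) and Zic2 (1.51 ± 0.085, adjusted p = 5.01e-11). Otx2 (1.38 ± 0.07), Zic5 (1.33 ± 0.07) and Sall2 (1.32 ± 0.09) followed closely, and Sox3 (0.73 ± 0.21) and Pim2 (0.28 ± 0.08) shifted least. In 1 fit of all 27 libraries 5 of the 7 passed, and Sox3 (adjusted p = 0.0504) and Pim2 (adjusted p = 0.433) did not. For Otx2, Zic2 and Zic5 the low day 0 level and a day 3 level near that of wild type make up this shift. For Sall2 a low day 0 level was followed by a day 3 level above wild type. For Pou3f1 the day 0 difference was small and not called in every fit, and the day 3 level lay above wild type.

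On day 10, 3 of the 7 genes were lower in the line labelled Sam68 KO than in wild type and none was higher, beside 50.6% of 20503 genes called, 22.8% higher and 27.8% lower. Zic5 stood at 4.73, 5.87 and 5.01 CPM against 9.37 to 12.15, 2.10-fold lower (-1.07 ± 0.14, adjusted p = 8.25e-05). Zic2 stood at 11.97, 11.4 and 10.9 CPM against 14.7 to 18.7, 1.5-fold lower (-0.58 ± 0.13, adjusted p = 0.0038). Neither overlapped with wild type, and 3 of the 7 genes did not overlap in all, beside 58.2% of all genes. Sall2 was 1.12-fold lower (-0.17 ± 0.06, adjusted p = 0.0284) and lost this call when any 1 of 4 libraries was left out: wild type day 10 replicate 3 or any of the 3 KO libraries (adjusted p from 0.0678 to 0.26). It was also lost with no filter (adjusted p = 0.114) and in 1 fit of all 27 libraries (adjusted p = 0.0887). Otx2, Pou3f1 and Pim2 were also estimated lower, at -0.36, -0.44 and -0.66 on the log2 scale, with adjusted p of 0.0585, 0.055 and 0.0686. Without wild type day 10 replicate 2, 6 of the 7 were called, these 3 included, at -0.46, -0.59 and -0.92. Otx2 was also called without replicate 1 of the KO (adjusted p = 0.0497) and Pim2 without its replicate 2 (adjusted p = 0.0261). Neural progenitor genes were lower in 4 of 10 and higher in 1 on this day, with the smallest p for Ncam1 (-1.60 ± 0.11), a neural cell adhesion molecule, and their sum was 131 to 142 CPM against 270 to 309. All 8 primitive streak genes were lower, with a sum of 13.0 to 26.9 CPM against 34.5 to 51.1. Endoderm genes were higher in 7 of 10 and lower in 2, with Gata4 at 1.46 ± 0.07 and Cubn at -0.45 ± 0.15, and their sum was 1584 to 1805 CPM against 1152 to 1366. The part of these cells in the lower values of Zic5, Zic2 and Sall2 was not tested.

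Between day 3 and day 10 the difference of that line from wild type shifted downward for 5 of the 7 genes, beside 54.2% of genes called, 30.3% higher and 23.9% lower. Upper-quartile scaling moved the share of higher calls over all genes in this test from 55.8% to 33.8%. Pou3f1 shifted by -1.87 ± 0.21 on the log2 scale, Sox3 by -1.32 ± 0.25, Zic5 by -0.87 ± 0.13, Sall2 by -0.70 ± 0.09 and Zic2 by -0.51 ± 0.11. Otx2 did not shift detectably (0.03 ± 0.13, adjusted p = 0.887). Pou3f1 thus went from the highest level of any group, 67.5 ± 10.3 CPM (SD, n = 3), to the lowest, 1.86 ± 0.10, between day 3 and day 10 of that line, a 36.5-fold fall.

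Because 4 of the genes share chromosome 14, each was set beside the genes tested within 5 Mb of it. In the line labelled Sam68 KO the 35 genes around Zic2 and Zic5 had a median log2 fold change of 0.51 on day 0 (quartiles 0.205 and 1.139), while Zic2 and Zic5 were at -1.48 and -1.43. On day 10 the 37 genes there had a median of 0.43, against -0.58 and -1.07. The medians around Otx2 (-0.025 on day 0) and Sall2 (-0.06) lay near 0, and that of all genes on chromosome 14 was 0.12. Around Sox3 the median was -0.37 on day 3 (quartiles -3.47 and 0.21), while Sox3 itself was at 1.005. In the Quaking KO on day 0 the median around Pim2 was 0.05, against -1.08 for Pim2. In each of these cases the gene lay outside the quartile range of its neighbours.

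**Figure D5:**
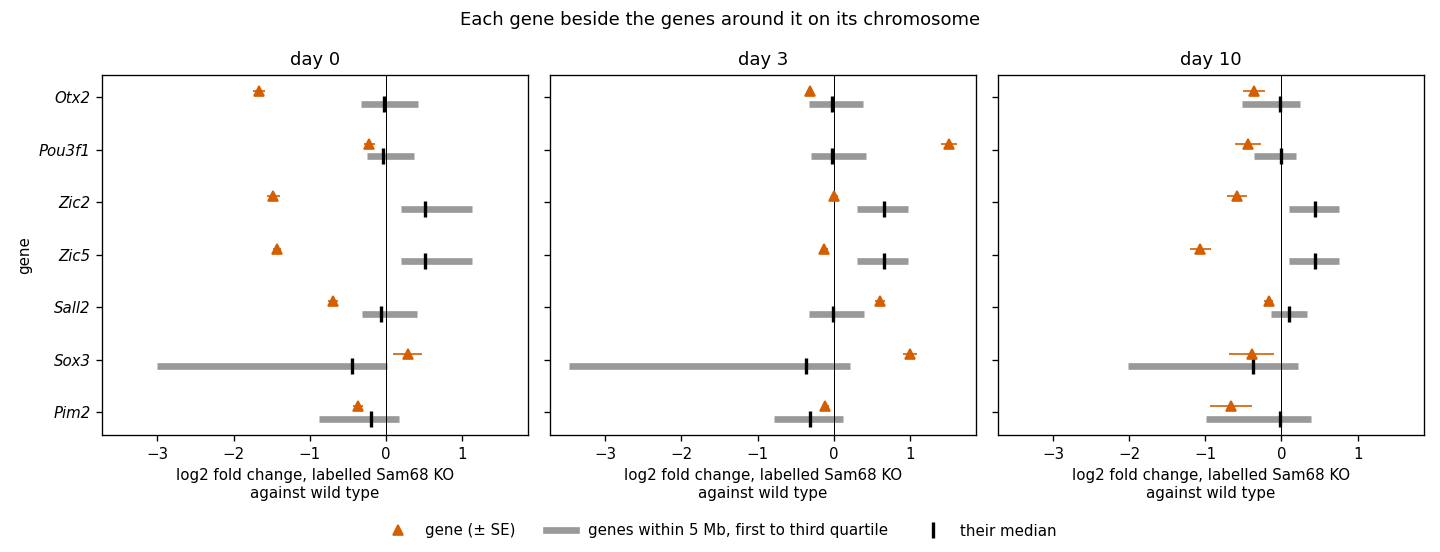
Log2 fold change of each gene in the line labelled Sam68 KO against wild type (triangles, ± SE) beside the quartile range (grey bars) and median (tick) of genes tested within 5 Mb, on days 0, 3 and 10. Zic2 and Zic5 lie below the quartile range of their neighbours on all 3 days, where the medians are 0.51, 0.66 and 0.43.

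The KO lines were also compared with each other; this comparison shares its libraries with those above. On day 0, 4 genes were lower and 3 higher in the line labelled Sam68 KO than in the Quaking KO (75.9% of genes called, 38.9% higher and 37% lower), with Otx2 at -1.26 ± 0.09, Zic2 at -1.18 ± 0.09 and Zic5 at -1.17 ± 0.05 on the lower side and Pim2 at 0.72 ± 0.08 on the higher side. Sox3 (0.59 ± 0.20) lost its call without Quaking KO replicate 2 (adjusted p = 0.092) or replicate 1 of the line labelled Sam68 KO (adjusted p = 0.0911), and in 1 fit of all 27 libraries (adjusted p = 0.0777), where Pou3f1 lost its call too (adjusted p = 0.13). Against wild type, the genes with the largest day 0 decreases were Pim2 and Pou3f1 in the Quaking KO and Otx2, Zic2 and Zic5 in the line labelled Sam68 KO. On day 3, 3 genes were higher and 1 lower (72.1% called, 35.3% higher and 36.8% lower), with Pou3f1 at 1.49 ± 0.105 and Sox3 at 0.68 ± 0.09. The lower gene was Otx2, at -0.293. In TPM the Otx2 means were 69.54 ± 2.2 in the line labelled Sam68 KO and 65.56 ± 2.73 in the Quaking KO (SD, n = 3), the opposite direction. On day 10 all 7 were lower in the line labelled Sam68 KO (56.6% called, 25.9% higher and 30.7% lower), from -0.42 ± 0.06 for Sall2 to -1.58 ± 0.14 for Zic5. Of these day 10 calls, Sox3 was lost without Quaking KO replicate 3 (-0.40, adjusted p = 0.232) or replicate 2 (-0.49, adjusted p = 0.174) or 3 (-0.80, adjusted p = 0.0706) of the line labelled Sam68 KO. That of Pim2 was lost without Quaking KO replicate 1 (adjusted p = 0.0607) or 2 (adjusted p = 0.0584), or without replicate 1 (adjusted p = 0.0846) or 3 (adjusted p = 0.102) of the line labelled Sam68 KO.

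Across the 9 group means of log2 CPM, Otx2 and Zic2 were alike (Pearson r = 0.995), and Zic2 ranked first for Otx2 among 12836 protein-coding genes. After Zic2, the genes most like Otx2 were Zswim5 (0.993) and Rab3b (0.992). For Zic2 they were Rab3b (0.995), Otx2 and Plch1 (0.995). The pair Zic2 and Zic5, although neighbours on the chromosome, reached r = 0.875. Pou3f1 and Sall2 were the least alike of the 7, at 0.3705. The genes most like Pou3f1 were Hcn3, Cdh9 and Jph4 (0.986 to 0.993), those most like Zic5 were Plcg2, Reep2 and Gdap1l1 (0.987 to 0.990), and those most like Sall2 were Peli2, Irs4 and Chrna4 (0.990 to 0.9935). For Sox3 they were Slc38a2, Med14 and Kcng3 (0.988 to 0.991), and for Pim2 Cnksr3, Jph1 and Flywch1 (0.9915 to 0.995). These values describe 9 points that share lines and days, and carry no test. Over the 27 libraries, 1 of the 3 genes was kept for each of Otx2, Zic5 and Sox3.

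Reads of an overlapping gene could enter some counts. Gm2164 shares 330 exonic bases with Pou3f1 on the opposite strand and held 1 to 68 counts per library, and Otx2os1 shares 154 bases with Otx2 and held 1 to 27. The library kit keeps strand, and whether the counting used it is not given in the sources used here. Of the 50-base windows of Zic5, 7.48% also occur in Gm12241 or Tmem236, and of those of Pim2, 1.57% in Gm21182 or Gm7645. Zic2, Sall2 and Sox3 share none with another annotated gene.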

How the data were processed

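RNA-seq was measured in 27 libraries, 9 groups of 3 biological replicates. Per the labels' protocols, total RNA was depleted of ribosomal RNA and sequenced as strand-specific paired reads, and per the submitters' processing notes bcl2fastq 2.17.1.14 and STAR 2.5.3a were used with GRCm38 (mm10). The authors deposited 1 table per library of raw read counts per gene. Which counter was run, with which strand option and gene models, is not given in the sources used here. Of 51826 identifiers, 51633 matched GENCODE M21 without version. Totals were 56.5 M to 77.3 M counts, which leaves at least 31 counts for each of the 7 genes in every library.

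Counts were tested with edgeR 4.0.16 (R 4.3.3) by the quasi-likelihood test, after filterByExpr (minimum count 10, minimum total 15) and TMM scaling, with Benjamini-Hochberg adjustment over all genes tested and a threshold of 0.05. Each day was fitted on its 9 libraries and each line on its 9. The change of a KO difference between days was fitted as an interaction on 12 libraries. SE is the absolute log2 fold change divided by the square root of the F statistic. CPM values are scaled by TMM over all 27 libraries, and TPM uses union exon lengths. The procedure was tested on simulated data.

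The 7 genes and all lists were chosen with earlier results of these data known. Named besides the 7 and the targeted genes were the 3 genes most like each of the 7 by Pearson r (protein-coding, mean of at least 1 CPM) and, of each list, up to 2 higher and 2 lower genes with the smallest p. Lists were read by counts and medians with no set test. Replicate numbers were not used to pair the samples in the main tests. By a chosen cutoff, in no comparison did all 3 same-numbered pairs correlate above 0.1. The Quaking KO against wild type on day 3 came closest, at r of 0.417, 0.149 and 0.096. Replicate 1 had the highest mitochondrial share in both these groups, 12.3% and 10.7%, where the other replicates had 6.3% to 7.3%. An effect shared by replicates of the same number is thus not excluded there. Alternatives were DESeq2 1.42.0, other scalings, no filter, protein-coding genes only, a replicate block, other sets of libraries and leaving out each library.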

Additional observations from a re-analysis of the deposited data

Results flagged for a closer look

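The difference between a KO line and wild type was not the same on all days for some of the genes, by edgeR's test of the interaction of line and day; values are shifts on the log2 scale. For the Quaking KO between days 0 and 3 these were Otx2 (0.39), Pou3f1 (0.55), Sox3 (0.62) and Pim2 (0.96), all 4 upward. In 1 fit of all 27 libraries 2 of these 4 passed, and Otx2 and Sox3 did not. Sox3 also lost its call in 7 of 12 fits that left out 1 library. Between days 3 and 10 the genes of the Quaking KO were Zic2 (0.79) and Zic5 (0.61), also upward. Zic5 lost that call in 8 of 12 fits that left out 1 library. For the line labelled Sam68 KO all 7 genes shifted upward between days 0 and 3: Pou3f1 by 1.75, Zic2 by 1.51, Otx2 by 1.38, Zic5 by 1.33, Sall2 by 1.32, Sox3 by 0.73 and Pim2 by 0.28, of which Sox3 (adjusted p = 0.0504) and Pim2 (adjusted p = 0.433) did not pass in 1 fit of all 27 libraries. Between days 3 and 10, 5 of them shifted downward: Pou3f1 (-1.87), Sox3 (-1.32), Zic5 (-0.87), Sall2 (-0.70) and Zic2 (-0.51). Groups of 3 libraries are too small for a test of single outlying samples.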

How the results depend on the processing

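No estimate with a call changed direction under any alternative test. Among called differences, mean TPM turned for Pou3f1 on day 0 and Zic5 on day 3 in the line labelled Sam68 KO against wild type. It also turned for Zic5 in the Quaking KO, at 8.196 on day 10 against 8.055 on day 0. For Otx2 on day 3 it turned between the KO lines, at 69.54 in the line labelled Sam68 KO against 65.56 in the Quaking KO. Most called counts among the 7 genes held. For the Quaking KO against wild type on day 3, the count of 0 became 1 with DESeq2, with no filter, on protein-coding genes only and in the fit with a replicate block (Sox3 in each), and 2 with the block on the 6 libraries compared (Sox3, and Sall2 at an adjusted p of 0.0487); leaving out single libraries gave 0 to 1. For the line labelled Sam68 KO against wild type on day 10, the count of 3 became 6 under upper-quartile scaling and 5 with DESeq2, with no filter, on protein-coding genes only and in 1 fit of all 27 libraries, and 2 to 6 when single libraries were left out. The change of the Quaking KO difference from day 0 to day 3 went from 4 to 2 in the fit of 27, and that of the line labelled Sam68 KO from 7 to 5. Leaving out single libraries gave 1 to 4 called genes for the Quaking KO against wild type on day 10 and 1 to 4 for the change of that difference from day 3 to day 10. The block changed 1 other call: Zic5 in the Quaking KO on day 10 had an adjusted p of 0.0553 under it. With the block on the 6 libraries compared, Zic5 there (0.0945) and Sall2 in the line labelled Sam68 KO on day 10 (0.0734) lost their calls, and in that line Pim2 on day 3 (0.0342) and Otx2 on day 10 (0.012) gained one. With the block, Quaking KO calls over all genes on day 3 went from 1381 to 2433 on 6 libraries, and on day 10 from 2392 to 1531. Every sample correlated best with its own replicate number in 2 of 18 comparisons. The fit of 27 called 4863 genes in the Quaking KO on day 10, and the change from day 3 to day 10 had 753 calls, 1214 with DESeq2, 1338 with no filter and 2047 in the fit of 27. Leaving out 1 library took the day 3 Quaking KO calls to 749 (wild type replicate 2) or 801 (wild type replicate 3), the day 10 calls to 1399 (Quaking KO replicate 2), and the 753 to between 370 and 464 for wild type day 3 replicate 2 or 3, Quaking KO day 3 replicate 1 or 3 and Quaking KO day 10 replicate 2. Upper-quartile scaling shifted the median of all genes by -0.107 for the line labelled Sam68 KO against wild type on day 10, with 32.2% of calls higher in place of 45.1%. Without TMM, 23 of 63 group means moved by more than their SD.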

Other observations

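Paralogues of the 7 genes moved in both directions in wild type. From day 0 to day 3, 5 of the 14 paralogues tested were higher and 6 lower, beside 30.8% of all genes higher and 30.1% lower. Zic1 at 3.40 ± 0.24 (log2 fold change, SE, edgeR) and Sall3 at 1.13 ± 0.10 were on the higher side. Sox1 at -4.22 ± 0.14 and the kinase gene Pim1 at -2.35 ± 0.08 were on the lower side. Pim1 and Pim2 thus moved in opposite directions over these days. In the line labelled Sam68 KO on day 3, 6 of 14 paralogues were higher and 4 lower than in wild type, with Sox1 at 2.79 ± 0.19 on the higher side. Over all genes, 36% were higher and 37.1% lower in that comparison.

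The other 12 formative and primed genes also moved in both directions. From day 0 to day 3 in wild type 6 rose and 5 fell, beside 30.8% of all genes higher and 30.1% lower. Fgf5, the ligand gene often used to mark the primed epiblast, rose by 8.88 ± 0.22 on the log2 scale from below 1 CPM, while Etv4 fell by 2.13 on that scale.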
